A study of Mus musculus with 2 samples.

Results

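Collagen transcripts were measured in mouse gastrocnemius, the large calf muscle, by long-read RNA sequencing. Of the 44 protein-coding collagen genes of the GENCODE M21 annotation, chosen by a symbol of the form Col, a number, a and a number, 35 had at least 1 read and 24 had a read in both libraries. They were 35 of the 14704 annotated genes with a read. Replicate 1 held 33 of them on 832 transcript models and replicate 2 held 26 on 410 models. All models of a gene were summed, and then the completeness and the splicing of the models were described.

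Collagens are secreted proteins whose chains wind in trios into a triple helix, which requires a glycine at each step of a repeat written Gly-X-Y. The fibrillar chains of types I, III and V form the load-bearing fibrils of tendon and of the connective tissue around muscle fibres. Type IV collagen forms the network of the basement membrane that wraps each muscle fibre, nerve and capillary, and type VI forms beaded microfibrils that link this membrane to the fibrils outside it. Most of this RNA is known to come from fibroblasts and other cells between the muscle fibres.

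The series has 1 group of 2 libraries, biological replicates 1 and 2, from male mice of strain B6CASTF1/J, an F1 cross, at 14 days of age, each made from 2 µg of RNA. The labels name no treatment. The labels name 1 donor record for both libraries and speak of 3 males, without saying whether muscles were pooled, so differences between the libraries may be technical or biological. There is no contrast of conditions, and every test below compares these libraries only. In whole tissue, fewer cells of a type and less RNA per cell cannot be told apart. Replicate 1 held 1094607 reads and replicate 2 626289 reads without spike-in RNA, so that 3 reads, the limit set by a count of 0, stood for 2.74 and 4.79 CPM (reads per 1000000 such reads). The 5 skeletal muscle markers summed to 257985 and 215222 CPM. As 1 read stands for 1 RNA molecule, CPM were not divided by transcript length. Intervals are exact Clopper-Pearson 95% intervals and, like the limit of 3 reads, cover counting error only.

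Short exons built on the Gly-X-Y repeat, which the choice by name did not use, were common in the collagen genes but uneven between their classes. Of the 1493 internal exons of their reference transcripts (for each gene the coding transcript with most exons), 399, or 26.7%, were exactly 54 bases long, against 489 of 121983, or 0.401%, in other protein-coding genes with reads. Lengths that are multiples of 9 bases, the length of one Gly-X-Y repeat in DNA, made up 63.3% of collagen exons and 13.2% of the others. Fibrillar genes carried many, such as 31 of 65 internal exons in Col5a3 and 21 of 49 in Col1a1. So did some fibril-associated genes, with 28 of 62 in Col22a1, 14 of 30 in Col9a2 and 14 of 31 in Col9a3. Others of that class had few, such as 4 of 64 in Col12a1. Col4a1 had 2 of 50, Col4a2 1 of 46 and Col6a1 3 of 33, and Col8a1, Col8a2, Col10a1 and Col26a1 had 0. Of the 399 exons, 395 began with GG, the first bases of a glycine codon. The earliest 54-base exon with GG at every step of 9 bases is shown for the 3 most-read genes, with those bases in capitals (GENCODE M21 transcripts, mm10, strand of the gene).
Col1a1 exon 8, chr11:94939904-94939957: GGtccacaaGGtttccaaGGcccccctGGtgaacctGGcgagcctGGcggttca
Col3a1 exon 6, chr1:45325360-45325413: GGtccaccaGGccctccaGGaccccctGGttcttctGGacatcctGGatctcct
Col1a2 exon 8, chr6:4515481-4515534: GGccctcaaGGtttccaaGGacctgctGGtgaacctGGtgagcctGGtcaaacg
In Col1a1 all 126 repeats within its 21 such exons began with GG, in Col3a1 all 144 within 24, and in Col1a2 140 of 144 within 24. Read structure is described below against this dense row of short exons, with 51 exons in Col1a1 and Col3a1 and 52 in Col1a2.

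The collagen genes together held 9868 reads in replicate 1 and 2481 in replicate 2, or 9015 and 3961 CPM (6488 ± 3573, SD, n = 2). They took 0.902% of all reads in replicate 1 (0.884 to 0.919%) and 0.396% in replicate 2 (0.381 to 0.412%). Fibrillar collagens were the largest class, with 83.3% of collagen reads in replicate 1 and 74.2% in replicate 2. Basement membrane collagens followed with 10.9% and 19.2%, then the beaded-filament collagens of type VI with 3.68% and 4.11%. The fibril-associated collagens held 1.27% and 1.49%, and the multiplexins, which sit at basement membranes, 0.638% and 0.887%. Transmembrane collagens held 5 reads in replicate 1 and 0 in replicate 2.

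Col1a1 (chr11:94936224-94953042), the major chain of type I collagen, held 4124 reads in replicate 1 and 576 in replicate 2, or 3768 and 919.7 CPM. It was the most-read collagen gene of replicate 1, 4.10 times higher there (3.75 to 4.48; adjusted p = 1.28e-303, Fisher's exact test with Benjamini-Hochberg adjustment over all genes tested). Col3a1 (chr1:45311538-45349706), whose chains form type III fibrils in compliant connective tissue, held 3039 and 990 reads, or 2776 and 1581 CPM. It led in replicate 2, and its level was 1.76 times higher in replicate 1 (1.63 to 1.89; adjusted p = 9.08e-56, Fisher's exact test). The order of the leading genes therefore differed between the libraries, with 1.36 Col1a1 reads per Col3a1 read in replicate 1 (1.29 to 1.42) and 0.582 in replicate 2 (0.524 to 0.645). Col1a2 (chr6:4504814-4541544), the partner chain of Col1a1, held 730 and 179 reads, or 667 and 286 CPM. Col1a1, Col1a2 and Col3a1 together took 80.0% and 70.3% of collagen reads.

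The other fibrillar genes were far lower. Col5a1, Col5a2 and Col5a3 encode type V chains, which are buried inside type I fibrils and help to set their diameter. Col5a1 held 77.7 and 54.3 CPM, Col5a2 56.6 and 27.1 CPM, and Col5a3 70.3 and 33.5 CPM. Col11a2, a type XI chain best known from cartilage, held 62 reads in replicate 1 and 18 in replicate 2 (56.6 and 28.7 CPM), and Col11a1 held 14 and 3. Col2a1, the main chain of cartilage fibrils, held 26 reads in replicate 1 and 2 in replicate 2. Of these 6 genes, Col5a3 (adjusted p = 0.0202) and Col2a1 (adjusted p = 0.00722) differed between the libraries by Fisher's exact test, both higher in replicate 1. Col24a1 had 3 reads, all in replicate 1, and Col27a1 had 0.

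Among basement membrane genes only the ubiquitous pair Col4a1 and Col4a2 had more than 2 reads. Col4a1 (chr8:11198423-11312826) held 620 and 146 reads, or 566 and 233 CPM. Col4a2 (chr8:11312805-11449287) held 447 and 331 reads, or 408 and 529 CPM, and was the only collagen gene called higher in replicate 2 when all models were summed. On annotated models alone it held 103 and 26 reads and was 2.27 times higher in replicate 1 (adjusted p = 0.00122, Fisher's exact test with Benjamini-Hochberg adjustment), so its direction depended on which models were counted. The chains of the kidney, lens and ear network, Col4a3, Col4a4 and Col4a5, had 1 or 2 reads, all in replicate 1, and Col4a6 had 0.

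The type VI genes Col6a1 and Col6a2 kept one ratio in both libraries. Col6a1 (chr10:76708792-76726168) held 206 and 55 reads (188 and 87.8 CPM), and Col6a2 (chr10:76595762-76623630) held 146 and 39 (133 and 62.3 CPM). There were 1.41 Col6a1 reads per Col6a2 read in both libraries (1.14 to 1.76 and 0.919 to 2.18). Col6a3, whose chain completes the type VI monomer, had only 10 and 8 reads, and its reference transcript has 10106 bases, against 4100 in Col6a1.

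Of the fibril-associated genes, Col22a1, known from the junction of muscle and tendon, was highest, with 53 reads in replicate 1 and 9 in replicate 2 (48.4 and 14.4 CPM; 3.37 times, 1.65 to 7.77; adjusted p = 0.00257, Fisher's exact test). Col16a1 held 39 and 9 reads, Col14a1 16 and 6, Col12a1 7 and 6, and Col20a1 8 and 3. The multiplexins Col15a1, found outside the muscle basement membrane, and Col18a1, the source of endostatin, held 26 and 11 and 37 and 11 reads. Col8a2, a short network-forming chain, held 11 reads in replicate 1 and 0 in replicate 2. Col13a1, a transmembrane collagen of the neuromuscular junction, had 2 reads in replicate 1 and 0 in replicate 2.

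In all, 22 of the 44 genes had the 10 reads needed for the test, 13 had 1 to 9 reads, and 9 had 0 (Col4a6, Col6a4, Col6a5, Col7a1, Col9a1, Col17a1, Col25a1, Col27a1 and Col28a1), which at this depth allows up to 2.74 and 4.79 CPM each. Among those with 1 to 9 reads and not yet named, Col26a1 had 6 reads in replicate 1 and 1 in replicate 2, Col19a1 1 and 3, and Col23a1, a transmembrane collagen, 3 and 0. Col8a1 had 1 read in each library, Col6a6 and Col9a2 1 read in replicate 1, and Col9a3 and Col10a1, both known from cartilage, 1 read in replicate 2.

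**Figure D1:**
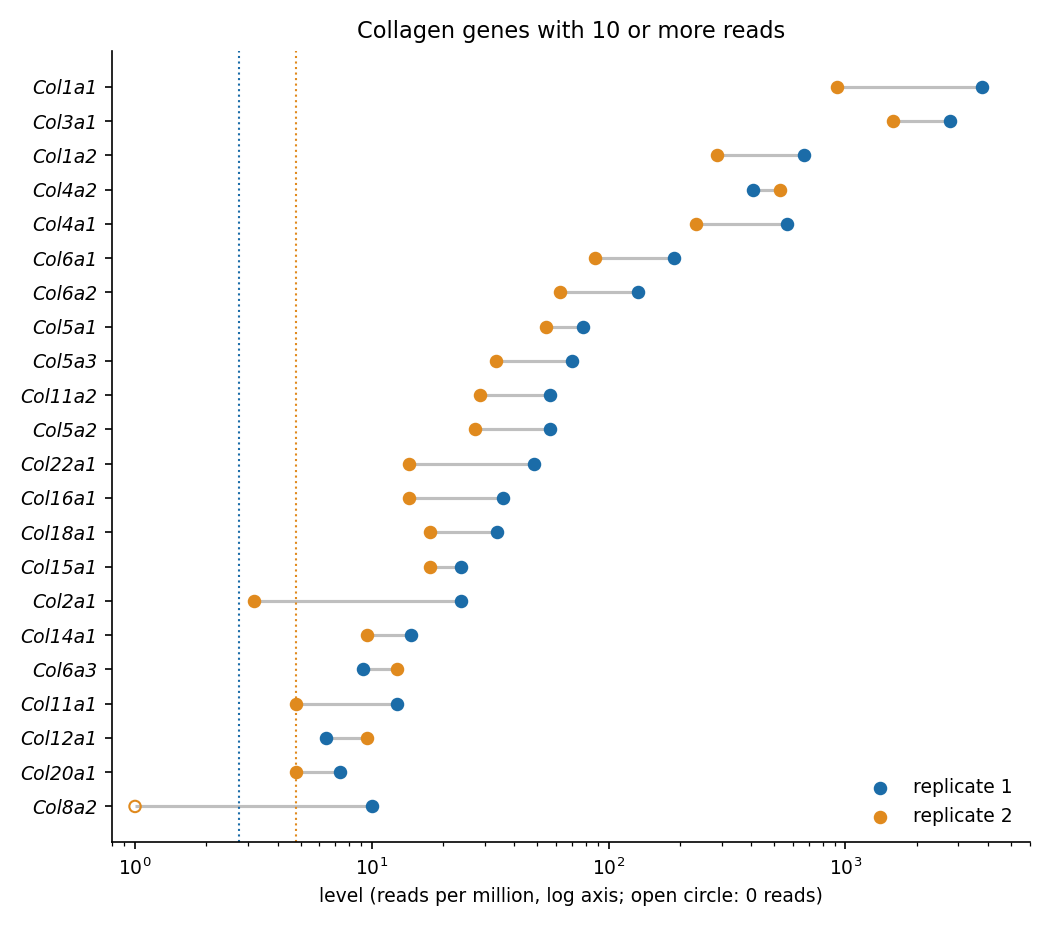
Level of each collagen gene with 10 or more reads over both libraries, in CPM on a log axis, blue for replicate 1 and orange for replicate 2. Dotted lines mark the level of 3 reads in each library and the open circle marks 0 reads. In 19 of the 22 genes replicate 1 is the higher, and Col4a2, Col6a3 and Col12a1 are the exceptions.

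Of the 22 collagen genes tested, 10 differed between the libraries, 9 higher in replicate 1 and 1, Col4a2, higher in replicate 2. Among all 7955 genes tested, 13.5% differed, 6.89% higher in replicate 1 and 6.56% higher in replicate 2. These shares rise with read number. With a minimum of 50 reads, 11 of 12 collagen genes tested differed, 10 of them higher in replicate 1. Of all genes tested with that minimum, 33.2% differed and 18.1% were higher in replicate 1. The median ratio of replicate 1 over replicate 2 was 2.09 for the collagen genes tested with a read in both libraries, 1.18 for all genes tested and 1.34 for genes with reference transcripts of at least 4000 bases. On annotated models alone 6 of 13 collagen genes tested differed, and on models of at least 2 exons 13 of 20, all of them higher in replicate 1, as were 7.29% and 8.34% of all genes tested in the same way. The 9 genes were Col1a1, Col3a1, Col1a2, Col4a1, Col6a1, Col6a2, Col5a3, Col22a1 and Col2a1. Over all genes the ratio of replicate 1 over replicate 2 also depended on transcript length, with a median of 0.502 in the shortest of 20 length classes and 1.30 in the longest. With that trend removed, 6 collagen genes differed, 5 higher in replicate 1 (Col1a1, Col3a1, Col1a2, Col4a1 and Col6a1), beside 7.05% of all genes in either direction and 2.55% higher in replicate 1. Relative to genes of its length, Col1a1 was 3.15 times higher in replicate 1 and Col3a1 1.35 times.

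Most tendon markers were higher in the same library. The 6 tendon markers summed to 416 CPM in replicate 1 and 169 CPM in replicate 2. Of the 5 tested, 4 (Tnmd, Fmod, Thbs4 and Kera) were higher in replicate 1, beside 6.89% of all genes tested. Scx, with 15 and 16 reads, went the other way at 13.7 and 25.5 CPM (adjusted p = 0.306, Fisher's exact test). The 6 cartilage markers summed to 34.7 and 9.58 CPM, nearly all of it Comp, which tendon also expresses, and the defining markers Acan, Sox9, Matn1 and Snorc had 0 reads in both libraries. The 6 bone markers summed to 10.96 and 7.98 CPM, with Ibsp and Sp7 at 0. The 6 fibroblast markers summed to 1179 and 838 CPM, the 5 endothelial markers to 339 and 228 CPM, and the 5 smooth muscle and pericyte markers to 481 and 369 CPM. Within these lists Mfap5, Dpt, Kdr, Egfl7 and Tagln were higher in replicate 2 instead, and none of them passed the test. The sum of the 5 Schwann cell markers was also higher in replicate 2, at 301 and 536 CPM. The part of tendon or other tissue in the collagen difference was not tested.

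The genes that modify, fold and crosslink collagen were taken as a list of 32. All of them had a read, 22 were tested, and 5 were higher in replicate 1 and 0 in replicate 2, beside 6.89% and 6.56% of all genes tested. The median ratio was 1.54 against 1.18 over all genes tested. The 5 were Sparc, a collagen-binding matrix protein (1196 and 765 CPM), P4hb, a subunit of prolyl 4-hydroxylase (333 and 233 CPM), Plod1, a lysyl hydroxylase (53.9 and 22.4 CPM), P3h1, a prolyl 3-hydroxylase (50.2 and 22.4 CPM), and Fkbp10, a collagen chaperone of the endoplasmic reticulum (47.5 and 11.2 CPM). The procollagen chaperone Serpinh1 held 317 and 269.8 CPM (adjusted p = 0.303, Fisher's exact test), and Pcolce, which speeds the removal of the C-propeptide, 210.1 and 155 CPM (adjusted p = 0.0740, Fisher's exact test). Colgalt1, Bmp1, Ppib and P4ha2 held 31.4 to 47.0 CPM on average and did not pass the test, nor did the remaining 11 genes tested.

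A model is called complete when its chain of splice sites is annotated, is a new combination of annotated sites or holds a new site. It is called partial when classed as only a stretch of another chain, which can be an unannotated one. Complete in this sense need not mean full length. A Col6a1 model with a new site, counted as complete, has 9 exons and 2169 bases (2 reads in replicate 2). A model of the same size and position was classed as partial in replicate 1 (9 reads). In replicate 1, 180 reads skipped Col6a1 exon 29 by an unannotated intron, and 115 of them were on complete models. Complete shares of Col6a1 are therefore not strictly comparable between the libraries. Genomic models lack the splicing of the gene they overlap. Of collagen reads, 66.1% in replicate 1 (65.1 to 67.0%) and 55.8% in replicate 2 (53.8 to 57.8%) were on complete models. The share was 87.4% and 83.6% for all protein-coding genes, but it fell with length. Pooled over other protein-coding genes with reference transcripts of 4000 to below 6000 bases, it was 75.8% and 69.0%. For those of 6000 to below 9000 bases it was 59.2% and 49.4%. Partial models held 30.3% and 40.7%, and genomic models 3.61% and 3.51%. Models of a single exon held 4.66% of collagen reads in replicate 1 and 19.1% in replicate 2. Of the models themselves, 52.5% and 57.1% rested on 1 read.

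Col1a1 and Col3a1 carried this share. Col1a1-201, the 51-exon annotated transcript of 5930 bases, alone held 2996 of 4124 reads in replicate 1 and 360 of 576 in replicate 2. Col3a1-201, with 51 exons and 5564 bases, held 2465 of 3039 and 766 of 990. Without these 2 genes, complete models held 30.8% and 22.2% of collagen reads. In replicate 1 the 12 collagen genes with at least 50 reads had a median complete share of 38.1%, from 6.58% in Col1a2 to 84.3% in Col3a1. Other protein-coding genes with as many reads had medians of 84.6% for reference transcripts of 4000 to below 6000 bases and 73.6% for 6000 to below 9000 bases.

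**Figure D2:**
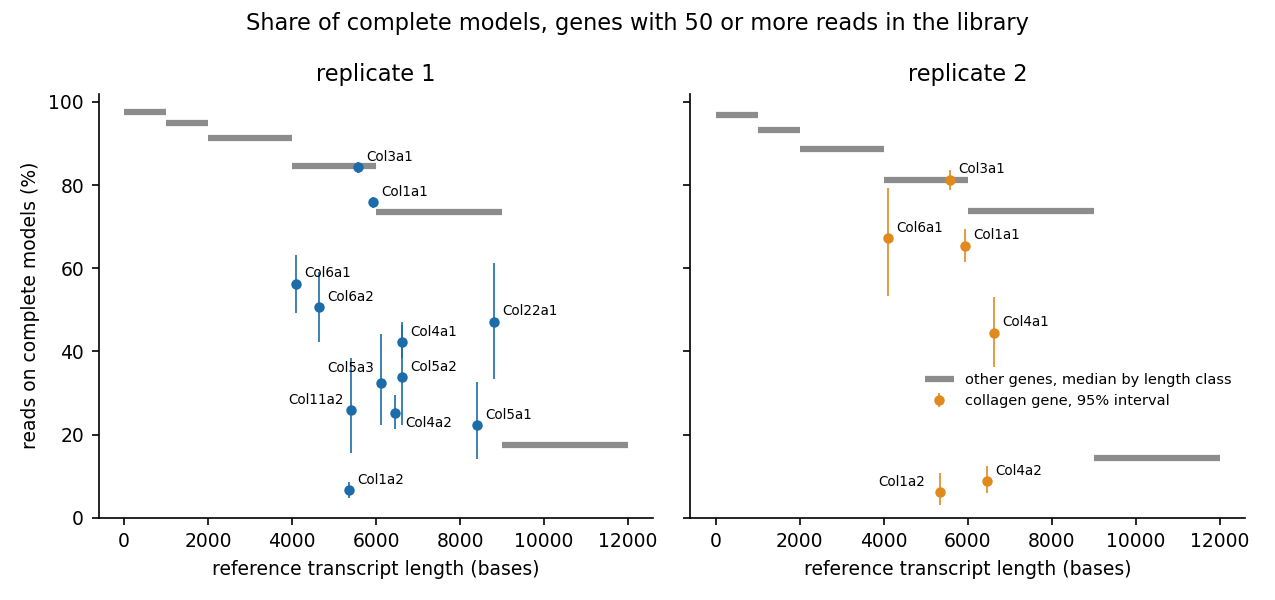
Share of reads on complete models against reference transcript length for collagen genes with 50 or more reads in the library (points with 95% intervals) and the median of other protein-coding genes by length class (grey bars, the last class drawn to the end of the axis). Col3a1 lies at the level of other genes of its length, at 84.3% and 81.3%, and Col1a2 lies far below, at 6.58% and 6.15%.

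The type IV genes differed from each other. Col4a1-201, with 52 exons and 6615 bases, held 242 of 620 reads and 63 of 146, and complete models held 42.3% and 44.5%. In Col4a2 complete models held 25.3% and 8.76%. Among type VI genes they held 56.3% and 67.3% in Col6a1 and 50.7% and 51.3% in Col6a2. The Col6a1 shares carry the difference in model class between the libraries given above. Col6a2-201 held 66 of 146 and 14 of 39 reads. Almost all Col6a2 reads with a last intron ended in the last exon of that transcript, its last intron being used by 129 reads in replicate 1 against 3 for the last intron of the reference transcript, and by 31 against 1 in replicate 2. The type V and XI genes with at least 50 reads were read mostly in part, complete shares being 22.4% and 29.4% for Col5a1, 33.9% and 23.5% for Col5a2, 32.5% and 9.52% for Col5a3, and 25.8% and 22.2% for Col11a2. Col22a1, at 8809 bases, had 47.2% in replicate 1 and 11.1%, 1 of 9 reads, in replicate 2.

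**Figure D3:**
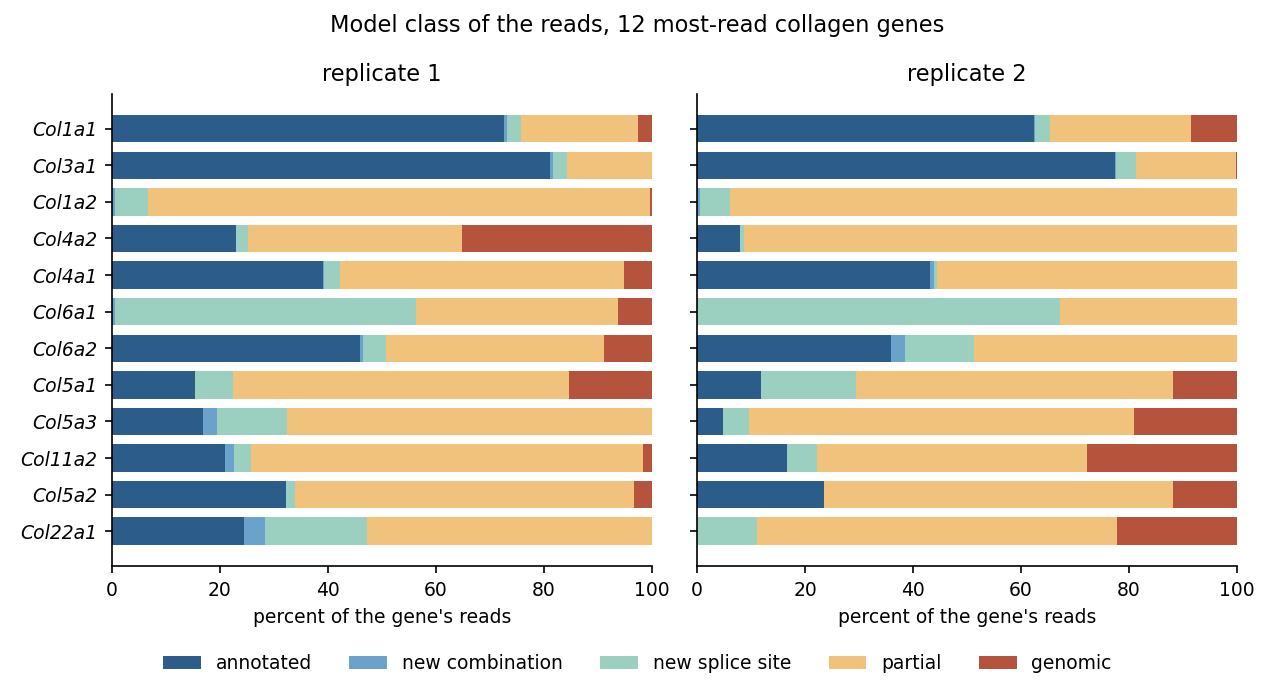
Reads of the 12 most-read collagen genes by model class, in percent of the gene's reads in each library. Annotated models (dark blue) dominate Col1a1 and Col3a1 and are absent in Col1a2 and Col6a1, where partial models and models with a new splice site lead.

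Reads crossing each annotated intron show how far reads extend towards the 5′ end. In Col1a1 the last of 50 introns was crossed by 3987 and 503 reads and the first by 3118 and 377, so that 78.0% of reads with the last intron also held the first in replicate 1 (76.7 to 79.3%) and 74.8% in replicate 2 (70.7 to 78.5%). In Col3a1 this share was 85.0% and 85.3%. It was 43.6% and 48.9% in Col4a1, 37.4% and 36.8% in Col4a2, 57.7% and 70.8% in Col6a1, and 23.9% and 20.7% in Col5a1. Among these genes alone, the order by this share was the same in both libraries (Col3a1, Col1a1, Col6a1, Col4a1, Col4a2 and Col5a1). Col5a2, at 33.9% and 28.6%, and Col11a2, at 26.8% and 30.8%, changed places. They had only 14 and 13 reads with the last intron in replicate 2. Over all collagen reads, 64.03% and 53.4% were on models starting within 50 bases of an annotated coding transcript start, against 87.6% and 82.2% for all protein-coding genes. Annotated models carry annotated ends in these files, and among the other collagen models the share was 8.25% and 6.02%.

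**Figure D4:**
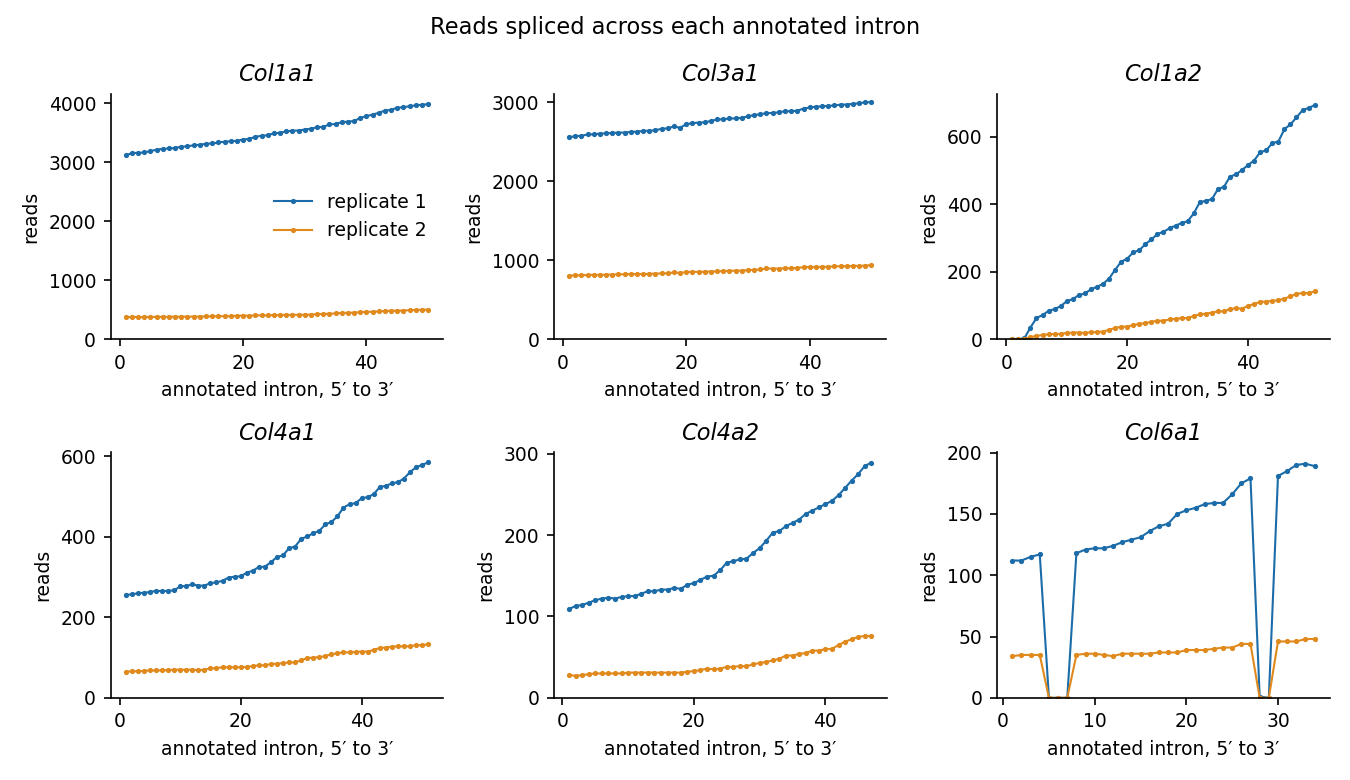
Reads spliced across each annotated intron of the reference transcript, from 5′ to 3′, for 6 collagen genes, replicate 1 in blue and replicate 2 in orange, each panel on its own linear axis from 0. Col1a1 and Col3a1 fall slowly towards the 5′ end, and Col6a1 drops to 0 reads around exons 6, 7 and 29. Col1a2 falls to 0 at the annotated first intron, though 25 and 5 reads left its exon 1 by unannotated introns.

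Col1a2 stood apart from its partner. Its transcript of 5348 bases is close in length and exon number to those of Col1a1 and Col3a1, yet no read of either library was assigned to an annotated Col1a2 model. The last of its 51 introns was crossed by 694 and 142 reads, the middle one by 319 and 55, the fourth by 35 and 7, and the first by 0 and 0. Exon 1 was still reached, as 25 and 5 reads left it by unannotated introns. The middle intron thus had 46.0% and 38.7% of the reads of the last, against 87.8% and 82.1% in Col1a1 and 92.8% and 92.0% in Col3a1. There were 5.65 Col1a1 reads per Col1a2 read in replicate 1 (5.22 to 6.12) and 3.22 in replicate 2 (2.72 to 3.83). On complete models the ratio was 65.1 and 34.3, and on partial models 1.31 and 0.893. What shortened the Col1a2 reads was not tested.

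Very short exons were missing from the reads at the 5′ end of Col1a2. This was not particular to Col1a2. In other protein-coding genes, exons of up to 15 bases were in 0.715% and 0.476% of spanning reads, pooled over reads. Exon 2 has 11 bases (chr6:4508335-4508345) and exon 3 has 15 (chr6:4508940-4508954). All 25 reads of replicate 1 and all 5 of replicate 2 that were spliced from exon 1 crossed both of these exons in a single unannotated intron, and none held exon 2 or 3. The intron used most, chr6:4505914-4509603, had 15 and 3 reads and left exon 1 at a site 4 bases past the annotated one. With 0 of 25 reads, the share with exon 3 among reads spliced from exon 1 could be at most 13.7% in replicate 1. A further 3 and 1 reads crossed annotated intron 3 from the end of exon 3, but no read was spliced into exon 3.

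Col6a1 lacked some of its short exons in these reads. Its leading model was unannotated, with 32 exons and 4090 bases, where Col6a1-201 has 35 exons and 4100 bases. This model, with the same exons in both libraries, held 104 of its 206 reads in replicate 1 (50.5%, 43.5 to 57.5%) and 32 of 55 in replicate 2 (58.2%, 44.1 to 71.3%). Exons 6 and 7, of 21 bases each, were in 0 of 118 and 0 of 35 spanning reads, and exon 29, of 9 bases, in 0 of 180 and 0 of 44. In place of exons 6, 7 and 8, which sum to 87 bases, the model has 1 exon of 82 bases, and in place of exons 28 and 29, with 46 bases, 1 exon of 41 bases, so that it lacks 5 bases at each site.

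The exons that no spanning read held are printed because their length is what they share, with 15 bases of each flanking exon in lower case and the exon itself in capitals. Exons of 14 and 17 bases in Col5a2 and Col2a1, which reads did hold, follow for comparison. The exons of this set were singled out after their values were seen.
Col1a2 exons 2 and 3, chr6:4508335-4508954: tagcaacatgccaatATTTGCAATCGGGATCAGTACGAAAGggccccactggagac
Col6a1 exons 6 and 7, chr10:76721088-76721283: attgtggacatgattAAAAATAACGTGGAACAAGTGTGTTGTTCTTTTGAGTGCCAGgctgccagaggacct
Col6a1 exon 29, chr10:76712865-76712873: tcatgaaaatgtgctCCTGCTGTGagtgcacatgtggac
Col5a2 exon 3, chr1:45438870-45438883: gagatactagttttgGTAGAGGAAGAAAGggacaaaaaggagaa
Col2a1 exon 3, chr15:97999275-97999291: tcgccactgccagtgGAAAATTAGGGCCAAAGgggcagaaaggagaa
Col5a2 exon 3 was in all 22 and all 4 spanning reads, and Col2a1 exon 3 in all 16 reads of replicate 1 and the single read of replicate 2. A 21-base exon of Col6a2, exon 4, was in 86 of 87 and 22 of 22 reads, so exons of equal length differed between genes.

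Across all collagen exons, inclusion fell only in the shortest classes. Exons of up to 15 bases were in 8.63% and 6.90% of spanning reads and exons of 16 to 24 bases in 30.5% and 24.7%, while exons of 25 to 35 bases were in 99.3% and 99.1% and 54-base exons in 99.99% in both libraries. In other protein-coding genes the 2 shortest classes were at 0.715% and 0.476%, and at 6.48% and 9.83%. These values are pooled over reads, so much-read genes weigh most, and the low collagen values come almost wholly from Col1a2 and Col6a1. In other protein-coding genes, exons of 25 to 35 bases were at 85.7% and 77.7%. Whether the RNA lacked these short exons or the alignment did not place them was not tested.

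**Figure D5:**
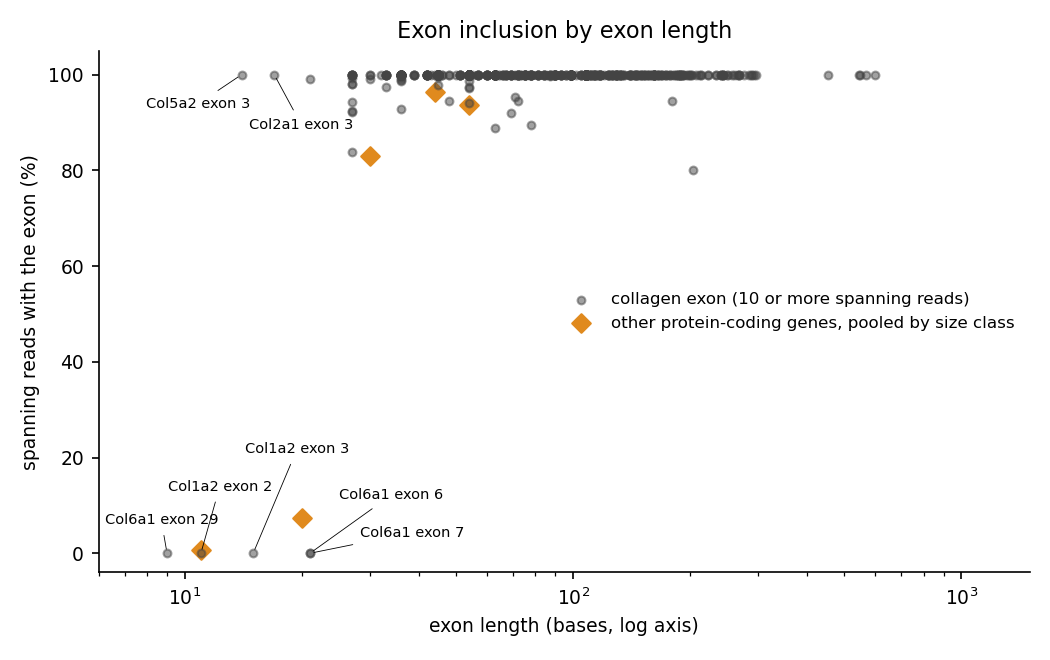
Percent of spanning reads that hold each internal collagen exon, both libraries summed, against exon length on a log axis (exons with 10 or more spanning reads). Orange diamonds give other protein-coding genes pooled by size class, for classes up to 54 bases, drawn inside the class. Of the 890 collagen exons, 867 were in at least 98% of reads, and the 5 at 0 are the named exons of Col1a2 and Col6a1.

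Most other exons were skipped rarely or not at all. Exceptions are given here for Col6a2, Col18a1, Col2a1, Col11a2 and Col16a1. In Col6a2, exons 8 and 9, of 27 bases each, were skipped in 8 reads of replicate 1 and 1 of replicate 2, leaving exon 8 in 91.5% and 95.5% of reads. Exon 15 of Col18a1, also of 27 bases, was skipped in 4 of 27 and 1 of 4 reads. Col2a1 exon 2, of 204 bases, is the exon kept in chondrocyte precursors and skipped in mature chondrocytes. It was held by 11 of 14 spanning reads in replicate 1 (78.6%) and by 1 of 1 in replicate 2. In Col11a2 the neighbouring exons 6, 7 and 8, in a stretch known for alternative splicing, were skipped in 2, 2 and 1 reads over both libraries, and they are named here after their values were seen. Col16a1 used an annotated exon of 45 bases, absent from its reference transcript, in 12 reads against 22 without it in replicate 1 and 3 against 3 in replicate 2. Single splice sites in Col1a1 and Col3a1 shifted by 2 to 5 bases in at most 1.06% of the reads at any intron. In Col18a1 an unannotated intron ending 3 bases later held 7 reads against 25 for the annotated one in replicate 1. In replicate 2 it held 3 against 3.

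Col4a1 and Col4a2 lie head to head on chromosome 8 and share a promoter from which they are transcribed in opposite directions. Their annotated starts overlap by 22 bases, chr8:11312805-11312826, shown on the strand of Col4a2 from the RefSeq promoter table (GRCm38.p6, which matched 26 of the 35 genes).
Col4a1 and Col4a2 shared start: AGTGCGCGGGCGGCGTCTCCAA
When all models were counted, the 2 genes differed in opposite directions between the libraries, with 1.39 Col4a1 reads per Col4a2 read in replicate 1 (1.23 to 1.57) and 0.441 in replicate 2 (0.361 to 0.538). Col4a2 had 157 reads on a single-exon genomic model of 3328 bases at its 3′ end in replicate 1 (chr8:11445960-11449287) and 254 on a single-exon partial model of 1229 bases within its last exon in replicate 2 (chr8:11448059-11449287), which were 35.1% and 76.7% of its reads. On models of at least 2 exons Col4a2 held 290 and 77 reads, or 265 and 123 CPM, and was 2.15 times higher in replicate 1 (adjusted p = 8.91e-09, Fisher's exact test, an alternative added after seeing the data), the direction it also had on annotated models alone. On complete models there were 2.32 Col4a1 reads per Col4a2 read in replicate 1 (1.85 to 2.92) and 2.24 in replicate 2 (1.43 to 3.60).

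The 3′ ends also differed by gene, as listed for unannotated spliced models that hold the last intron. In Col1a1, models ending 1199 bases before the annotated end held 92.0% of 991 such reads in replicate 1, and models ending 1195 bases before it held 86.7% of 143 in replicate 2. In Col3a1, 92.2% and 95.9% ended 693 and 688 bases before it. Col1a2 was divided, with 46.3% of reads in replicate 1 and 34.5% in replicate 2 at the annotated end and 42.5% and 64.8% at 536 and 535 bases before it. In Col4a2 and Col6a1 all such reads, and in Col4a1 96.8% and 91.4%, were on models ending at the annotated position. A model lists 1 end for all its reads, so ends of single reads are not known.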

How the data were processed

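Long-read RNA-seq gave 1 table of models and 1 annotation per library. The counts the authors deposited are whole reads for each transcript model, made for each library alone from filtered mm10 alignments and the GENCODE M21 annotation, per the file descriptions. No aligner or version is given in the sources used here, and the class names are those of TALON. All annotated models matched GENCODE M21 in exons (16090 of 16090 and 12749 of 12749).

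Counts were summed per gene as deposited, without ERCC spike-ins, and scaled to CPM. Libraries were compared by a two-sided Fisher's exact test per gene on every gene of 10 or more reads, adjusted over those genes by Benjamini-Hochberg (threshold 0.05; scipy 1.17.1, tested on simulated data). An exon counts as skipped where an intron of the model spans it and at most 3 exons. The alternatives were model classes, TMM scaling (edgeR 4.0.16), thinning, read minimums, a length trend and each library left out. Values are printed for collagen genes with at least 10 reads, models for the most-read genes, exons where the rarer form has 5 reads and 2%, and pathway genes with 50 reads. One exon that met this rule is not reported here. Members and lists were chosen with earlier results of these data known.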

Additional observations from a re-analysis of the deposited data

Results flagged for a closer look

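Reads on loci that the files class as antisense to a collagen gene belong to no comparison above, and in 2 genes they exceeded the 3 reads that a count of 0 allows in both libraries. Antisense to Col1a1 there were 58 reads in replicate 1 and 92 in replicate 2 (52.99 and 147 CPM), which is 1.41 and 15.97 per 100 Col1a1 reads, so the antisense level was higher in the library with less Col1a1. The main locus, of a single exon, held 57 reads in replicate 1 (chr11:94952497-94953042) and 90 in replicate 2 (chr11:94952710-94953042), and it lay wholly within the last exon of Col1a1. Antisense to Col1a2 there were 7 reads in replicate 1 and 19 in replicate 2 (6.39 and 30.3 CPM), or 0.959 and 10.6 per 100 Col1a2 reads. Of these, 3 and 17 were on a locus listed with only 3 bases, chr6:4505702-4505704, inside the gene, and 4 and 2 lay in its last exon. In all, 19 collagen genes had an antisense read, 82 in replicate 1 and 131 in replicate 2. Against these, Col3a1 had 0 and 2 antisense reads beside 3039 and 990 of its own. Whether these are antisense RNAs was not tested.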

How the results depend on the processing

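No paired analysis was possible because the labels give a single group. With annotated models alone, 15 collagen genes had a read in both libraries instead of 24, fibrillar genes held 91.7% of collagen reads and Col1a1, Col1a2 and Col3a1 90.5%, and 6 of 13 tested genes differed instead of 10 of 22. All 6 were higher in replicate 1, Col4a2 among them. This scale has no Col1a2 or Col6a1 reads. With complete models alone the shares were 88.6% and 87.0%, against means of 78.7% and 75.2% with all models. Removing the length trend left 6 genes that differed. The complete share was 60.9% on average and 26.5% without Col1a1 and Col3a1. The other alternatives for these results moved a value by less than 1 SD or a count by less than 1.5 times. Among them were TMM scaling (9 genes differed, without Col5a3), thinning of replicate 1 (10), spliced models alone (13) and leaving out the Genomic class (14). The SD between the libraries is a wide limit. The mean summed level was 6488 CPM with an SD of 3573 CPM. It fell to 3739 CPM on annotated models and 4084 CPM on complete models, within that limit, so it did depend on model class. Of the 110 gene levels under alternatives, 20 moved by more than 1 SD, 18 of them with annotated models alone, and none with TMM. With either library left out, the summed level was 3961 and 9015 CPM. With 2 libraries, a value with 1 left out always lies within 1 SD of their mean. That alternative therefore could not move a value, and it is counted among the 110 gene levels. Depth limits the description of exon use to 20 genes.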
